A study of Mus musculus with 2 samples.

Results

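The genes described here are 48 genes of DNA replication and mitosis, chosen by name from the 31054 genes counted in both libraries. They comprise 28 genes used at and around mitosis (the G2/M genes), 19 genes used in DNA synthesis (the S phase genes) and Stmn1, kept apart. All 48 were present by symbol in both libraries. No measured value entered the rule for these genes, but they were chosen with earlier results of these data known.

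Before a cell divides it copies its DNA in S phase and then separates the copies in mitosis. The MCM helicase opens the DNA, PCNA clamps the polymerase to it, and thymidylate synthase (Tyms) and ribonucleotide reductase (Rrm1, Rrm2) supply nucleotides. Cdk1 with its B-type cyclins starts mitosis, centromere proteins and kinesins move the chromosomes, and the proteins are degraded afterwards by a ubiquitin ligase that works with Cdc20 and Ube2c. Most of these genes are transcribed in a burst once per cycle. A few, among them Hmgb2 (a chromatin protein), Cks2 (a small partner of cyclin-dependent kinases) and Slbp (which binds histone mRNA), are also made outside it.

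The mice were tracing mice, carrying Adiponectin-rtTA, TRE-Cre and a Rosa26 mT/mG reporter on a C57BL/6 background, a combination named inAd-Chaser-mTmG. Doxycycline switches on Cre in cells that use the adiponectin promoter, and these change permanently from membrane tdTomato to membrane EGFP. Breast tumours arose either from a cross to PyMT mice or from cancer cells placed in the mammary gland. The sample label names the implanted tumour Met-1, whereas the series' design text names EO771 cells, so "Met-1 transplant" here is the label's word. EGFP+ tdTomato- cells were sorted from each tumour and sequenced as 1 droplet library per tumour type. Age, sex, doxycycline timing and the number of mice per library are not given in the sources used here. Having 1 library in each group, the data allow no replicate check, no test and no p-value. All intervals are exact 95% intervals that cover counting error only. RNA molecules are counted as unique molecular identifiers (UMIs), and levels are given per 1000000 UMIs (CPM).

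Of 2451 Met-1 barcodes 2112 were kept, with a median of 7684 UMIs, and of 619 PyMT barcodes 589 were kept, with a median of 3470. No barcode was shared. Kept cells were thinned to 1000 UMIs each, and 2042 and 565 cells were deep enough. At that depth a cell type was assigned from marker genes that include none of the 48. The Met-1 library gave 828 macrophages or monocytes, 235 T, 226 B, 213 fibroblast, 98 NK, 85 mural, 34 neutrophil and 21 luminal cells. The PyMT library gave 197 macrophages or monocytes, 164 neutrophils, 58 luminal, 32 T and 28 B cells. In both, nearly all macrophages lay on the C1q side of the monocyte split (798 and 190). Depth differed among types, from a median of 1644 UMIs in PyMT neutrophils to 17108.5 in PyMT luminal cells, and its part in the unthinned shares was not tested. The labels expect adipocyte-derived cells, yet none was assigned by adipocyte markers and most carried immune markers.

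The promoters of the 48 genes showed how the G2/M and S phase groups differ in sequence. Windows of 300 bases (250 before to 50 after the start, RefSeq, GRCm38.p6) were matched for 42 of 48 genes, 2 of which had 2 windows. Aurkb, Ccna2, Gins2, Mcm4, Stmn1 and Tpx2 were not matched. Both strands were searched for TTTGAA (the cell cycle homology region, CHR), for CCAAT, and for the E2F heptamer TTGGCGC in that spelling or as the variant TTCCCGC or the variant TTCGCGC or the variant TTGCCGC, which can overlap one another. CHR letters lay in 72% of 25 G2/M windows and 11.8% of 17 S phase windows, against 17.9% of all 32851 windows. E2F letters lay in 20% of the G2/M and 58.8% of the S phase windows, against 9.57% of all. CCAAT lay in 80% and 70.6%, against 37.4% of all. A match is only a match of letters, and no factor binding was measured.

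Of these windows, 6 are shown because their genes carry most of the results. Cdk1 is the mitotic kinase, Hmgb2, Cks2 and Cenpa are the G2/M genes with the most UMIs, and Pclaf (the PCNA-associated factor) and Mcm3 are S phase genes. Capitals mark every CHR, CCAAT or E2F match on either strand. Cdk1 lies at chr10:69352863-69353162 on the minus strand, Hmgb2 at chr8:57511593-57511892 on the plus strand and Cks2 at chr13:51644982-51645281 on the plus strand. Cenpa lies at chr5:30666636-30666935 on the plus strand, Pclaf at chr9:65890073-65890372 on the plus strand and Mcm3 at chr1:20820263-20820562 on the minus strand.
Cdk1: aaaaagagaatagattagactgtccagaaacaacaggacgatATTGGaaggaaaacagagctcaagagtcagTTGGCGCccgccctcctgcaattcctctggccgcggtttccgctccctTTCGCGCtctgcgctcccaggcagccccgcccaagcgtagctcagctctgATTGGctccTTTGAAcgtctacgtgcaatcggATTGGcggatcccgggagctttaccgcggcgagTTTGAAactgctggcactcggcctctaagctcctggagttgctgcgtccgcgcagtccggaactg
Hmgb2: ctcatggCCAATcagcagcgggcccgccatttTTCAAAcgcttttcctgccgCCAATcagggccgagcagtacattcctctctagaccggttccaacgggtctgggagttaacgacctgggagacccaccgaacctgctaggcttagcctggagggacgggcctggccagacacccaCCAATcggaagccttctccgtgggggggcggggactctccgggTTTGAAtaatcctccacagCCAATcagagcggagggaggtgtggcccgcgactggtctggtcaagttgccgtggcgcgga
Cks2: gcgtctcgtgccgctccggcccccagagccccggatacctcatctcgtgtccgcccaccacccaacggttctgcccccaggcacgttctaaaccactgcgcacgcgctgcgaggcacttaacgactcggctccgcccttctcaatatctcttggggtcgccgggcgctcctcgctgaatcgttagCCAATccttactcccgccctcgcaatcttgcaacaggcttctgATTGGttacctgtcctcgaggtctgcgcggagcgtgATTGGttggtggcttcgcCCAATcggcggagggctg
Cenpa: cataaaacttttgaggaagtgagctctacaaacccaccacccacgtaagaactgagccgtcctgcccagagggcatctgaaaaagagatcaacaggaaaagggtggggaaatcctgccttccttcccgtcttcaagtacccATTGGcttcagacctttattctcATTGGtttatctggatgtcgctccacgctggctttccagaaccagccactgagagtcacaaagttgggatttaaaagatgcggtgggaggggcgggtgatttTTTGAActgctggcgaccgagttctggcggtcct
Pclaf: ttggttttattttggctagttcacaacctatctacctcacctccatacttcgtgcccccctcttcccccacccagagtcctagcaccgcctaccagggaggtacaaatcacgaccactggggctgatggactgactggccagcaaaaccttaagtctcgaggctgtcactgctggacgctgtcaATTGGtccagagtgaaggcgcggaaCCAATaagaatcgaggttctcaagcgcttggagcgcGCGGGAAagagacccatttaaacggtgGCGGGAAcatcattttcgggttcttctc
Mcm3: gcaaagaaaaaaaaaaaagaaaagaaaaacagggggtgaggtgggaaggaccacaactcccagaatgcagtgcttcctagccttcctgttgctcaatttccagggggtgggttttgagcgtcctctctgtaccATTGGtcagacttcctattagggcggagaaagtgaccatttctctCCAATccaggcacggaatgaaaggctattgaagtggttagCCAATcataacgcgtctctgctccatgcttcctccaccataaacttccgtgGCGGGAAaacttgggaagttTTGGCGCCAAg
The Cdk1 window held 2 CHR and 2 E2F matches, and the Hmgb2 window 2 CHR and no E2F match. In Cks2 there was neither, only 4 CCAAT matches. Pclaf held 2 E2F matches and Mcm3 held 3, neither with CHR letters.

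With all 28 genes counted together at equal depth, G2/M RNA was most often seen in neutrophils in both libraries, among the types with at least 20 cells. At 1000 UMIs per cell, at least 2 G2/M UMIs were present in 41.2% of Met-1 neutrophils (95% interval 24.6 to 59.3) and 28.7% of PyMT neutrophils (21.9 to 36.2). Macrophages reached 16.8% (14.3 to 19.5) in Met-1 and 11.7% (7.55 to 17) in PyMT. Met-1 NK cells reached 23.5%, T cells 14%, B cells 8.85%, mural cells 7.06%, luminal cells 4.76% and fibroblasts 1.41%. Without thinning, the Met-1 shares were 70.0% in macrophages, 85.3% in neutrophils, 84.7% in NK cells and 36.2% in fibroblasts. Unthinned PyMT neutrophils, the shallowest type, stood at 47.6%, below PyMT macrophages (65.5%), luminal cells (70.7%) and T cells (59.4%), so their lead in that library held at equal depth only. In the thinned PyMT library, T cells reached 18.8% (7.21 to 36.4), luminal cells 6.90% and B cells 7.14%, the first of these resting on 6 of 32 cells.

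The S phase genes gave another order, with T and NK cells high and neutrophils low. At least 2 S phase UMIs were present in 17.3% of Met-1 NK cells (10.4 to 26.3), 15.7% of T cells (11.3 to 21) and 8.70% of macrophages (6.87 to 10.8). No Met-1 neutrophil of 34 reached 2, which allows a share of up to 10.3%, and 0.610% of PyMT neutrophils did. PyMT macrophages stood at 9.14% (5.51 to 14.1), within the interval of the Met-1 macrophages. Unthinned, 57.2% of Met-1 and 65.5% of PyMT macrophages had at least 2 S phase UMIs. Met-1 B cells stood at 3.98% (1.84 to 7.42), mural cells at 3.53%, fibroblasts at 2.35% and luminal cells at 9.52%, the last on 2 of 21 cells. In PyMT, T cells reached 18.8% (6 of 32), B cells 17.9% (5 of 28) and luminal cells 3.45%. B cells thus lay below macrophages in Met-1 and, on 28 cells with a wide interval (6.06 to 36.9), above them in PyMT.

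**Figure D1:**
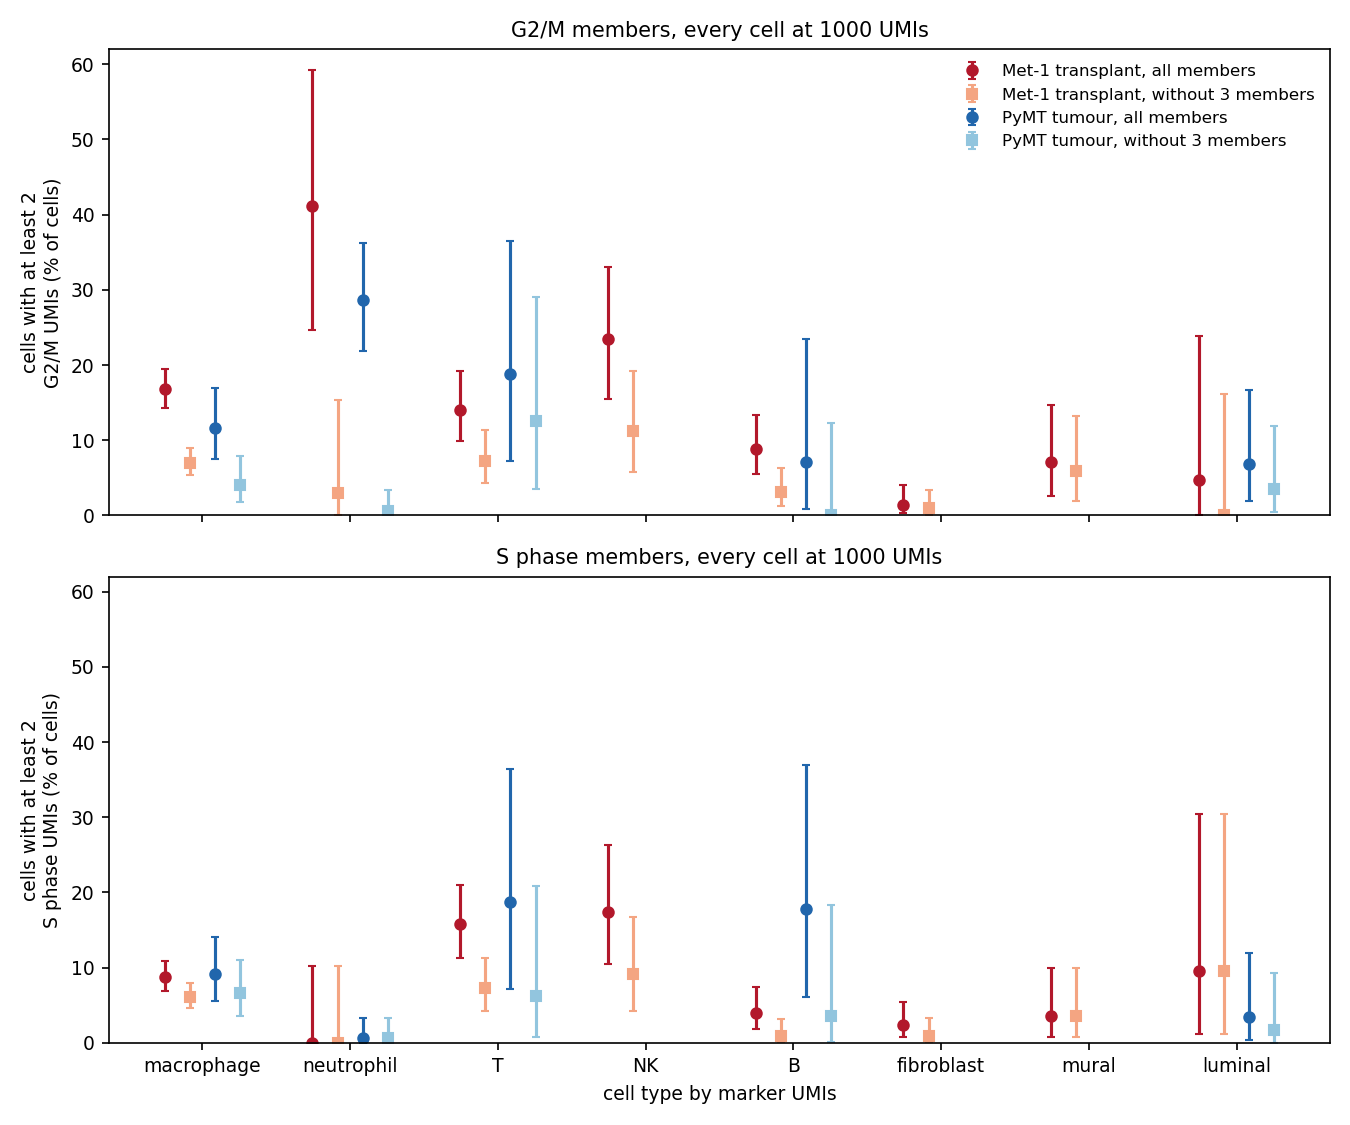
Share of cells (percent, vertical axis) holding at least 2 G2/M or S phase UMIs at 1000 UMIs per cell, by cell type and library, with exact 95% intervals for counting error, for all genes and for the reduced sets that leave out 3 genes each. Neutrophils lead the G2/M shares with all 28 genes (41.2% and 28.7%) and drop to 2.94% and 0.610% without Hmgb2, Cks2 and Ckap2.

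Much of the G2/M signal came from a single gene. Hmgb2 supplied 43.2% of all G2/M UMIs in Met-1 and 35.7% in PyMT, by UMI number and not per length. Its share was 64.0% and 63.4% in neutrophils, 42.4% and 34.6% in macrophages, and 17.5% in Met-1 mural cells. Neutrophil Hmgb2 levels were 818 CPM for Met-1 and 692 CPM for PyMT, against 468 and 259 CPM in macrophages. The neutrophil levels were thus the higher of the 2 types in each library. Cks2 stood at 312 and 329 CPM in neutrophils and 63.9 and 127 CPM in macrophages.

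**Figure D2:**
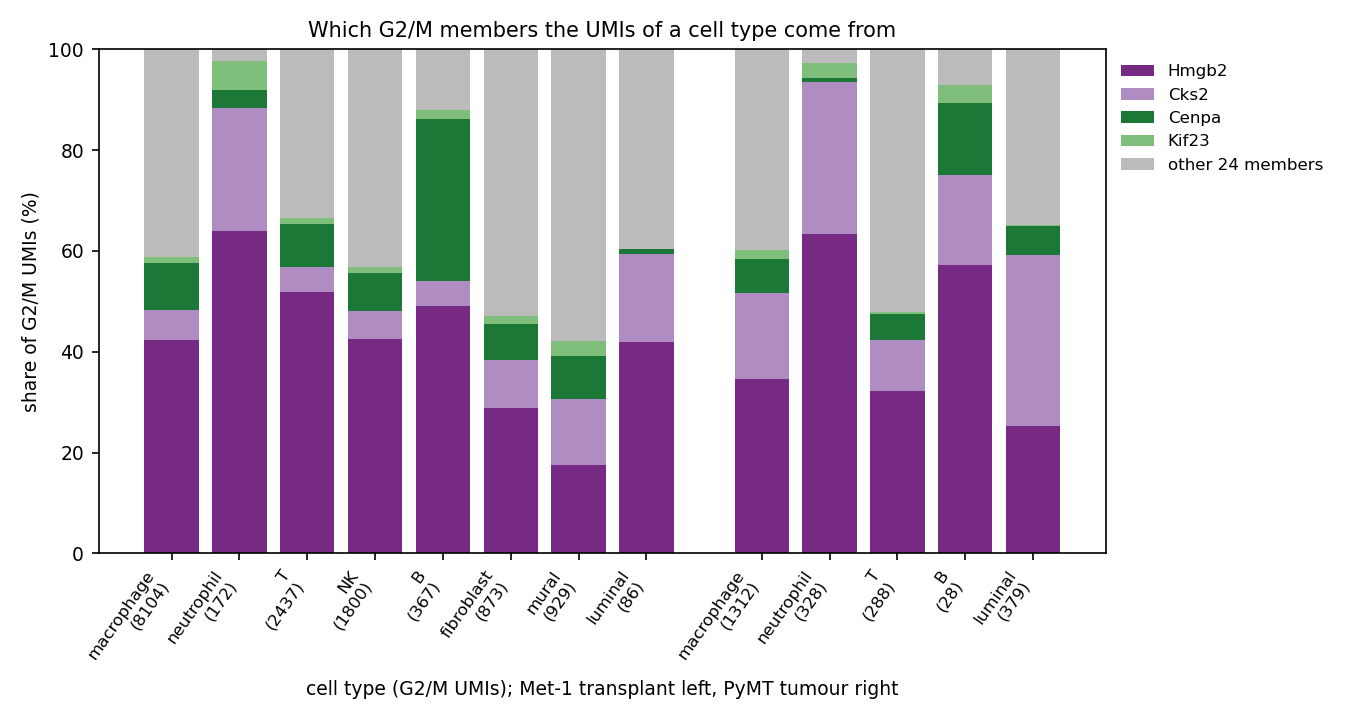
Share of the G2/M UMIs (percent) contributed by Hmgb2, Cks2, Cenpa, Kif23 and the other 24 G2/M genes (stacked bars) in each cell type of the 2 libraries, with the number of G2/M UMIs in brackets. Hmgb2 holds 64.0% and 63.4% in neutrophils and 17.5% in Met-1 mural cells.

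Leaving out Hmgb2, Cks2 and Ckap2 from the G2/M set and Slbp, Dut and Tyms from the S phase set gave reduced sets of 25 and 16 genes. The neutrophil G2/M share was then 2.94% in Met-1 and 0.610% in PyMT, and that of macrophages 7.0% (5.36 to 8.96) and 4.06% (1.77 to 7.84). Relative to the other assigned cells of their library, neutrophils held 1.45 (Met-1) and 1.51 (PyMT) times the G2/M level with all 28 genes, and 0.328 and 0.207 times with 25. So the direction of the neutrophil difference turned with 3 genes. S phase levels were 0.277 and 0.500 times those of the other cells. Each reduced neutrophil share rested on 1 cell and was 0 without Kif23, at median depths of 2981.5 and 1644 UMIs. The share that free RNA would give in these droplets was not measured.

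Gene by gene, the neutrophils were almost empty of mitotic genes. In Met-1, 20 of 28 G2/M and 13 of 19 S phase genes were at 0, and in PyMT 17 and 10 were. Mki67 (the Ki-67 antigen), Cdk1, Ccnb1 (cyclin B1), Cdc20 and Birc5 (survivin) had no UMI in either library, which allows up to 27.4 CPM for Met-1 and 12.3 CPM for PyMT. Macrophage Mki67 stood at 56.7 and 15.4 CPM, above those limits in both libraries. Macrophage Cdk1 stood at 27.1 and 27.9 CPM, above the limit in PyMT but not in Met-1. With CPM and 10 added, 3 G2/M genes were at least 2-fold higher in Met-1 neutrophils than in the other cells (Hmgb2, Cks2 and Kif23), where 6.23% of all measured genes were. In the other direction 13 G2/M and 10 S phase genes and Stmn1 were at least 2-fold lower, where 23.1% of all measured genes were. PyMT neutrophils showed 2 of 8 measured G2/M genes higher (Hmgb2 and Cks2, background 9.13%) and the other 6 lower, with 8 of 11 S phase genes lower (background 35.2%). A gene was measured if either side held at least 50 UMIs. Neutrophils held 20 (Met-1) and 21 (PyMT) UMIs over the whole reduced G2/M set. They held 19 S phase UMIs in Met-1 and, without Slbp, 37 in PyMT. The G2/M and S phase genes called lower were thus measured through the other cells alone, which favours genes high there. Kif23, a kinesin of cytokinesis picked out after its values were seen, stood at 74.4 and 33.2 CPM on 10 UMIs in each library.

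B cells were also low in most mitotic genes, with Cenpa standing out beside Hmgb2. In Met-1 B cells Hmgb2 led at 214 CPM with 49.0% of the G2/M UMIs, and 8 of 28 G2/M genes were at 0. Unlike in neutrophils, their G2/M level lay below that of the other cells with all 28 genes as well, at 0.479 times. Cenpa, the centromeric histone, reached 140 CPM in Met-1 B cells, above its 103 CPM in macrophages and 99.0 CPM in T cells, whereas Mki67 was at 0 and Top2a (topoisomerase II alpha) at 3.57 CPM. PyMT B cells held Cenpa at 65.5 CPM, on 4 UMIs, with Mki67 and Top2a both at 0. Of the 226 Met-1 B cells 7 held at least 2 reduced-set G2/M UMIs, in 5 of them all from Cenpa, and none did once Cenpa was left out, which allows up to 1.62%. In Met-1 B cells 13 of 28 measured G2/M genes were at least 2-fold lower than in the other cells, beside 19.2% of all genes. Without Hmgb2, Cks2, Ckap2, Cenpa and Kif23 these B cells held 43 UMIs over the other 23 G2/M genes. Apart from Cks2, the G2/M genes called lower lay among these. They were thus measured through the other cells alone, which favours genes high there. Of 19 S phase genes 2 were lower (Tyms and Pclaf), a smaller share than that of all genes. B cells had a median of 3488 UMIs, against 7796 in macrophages.

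**Figure D3:**
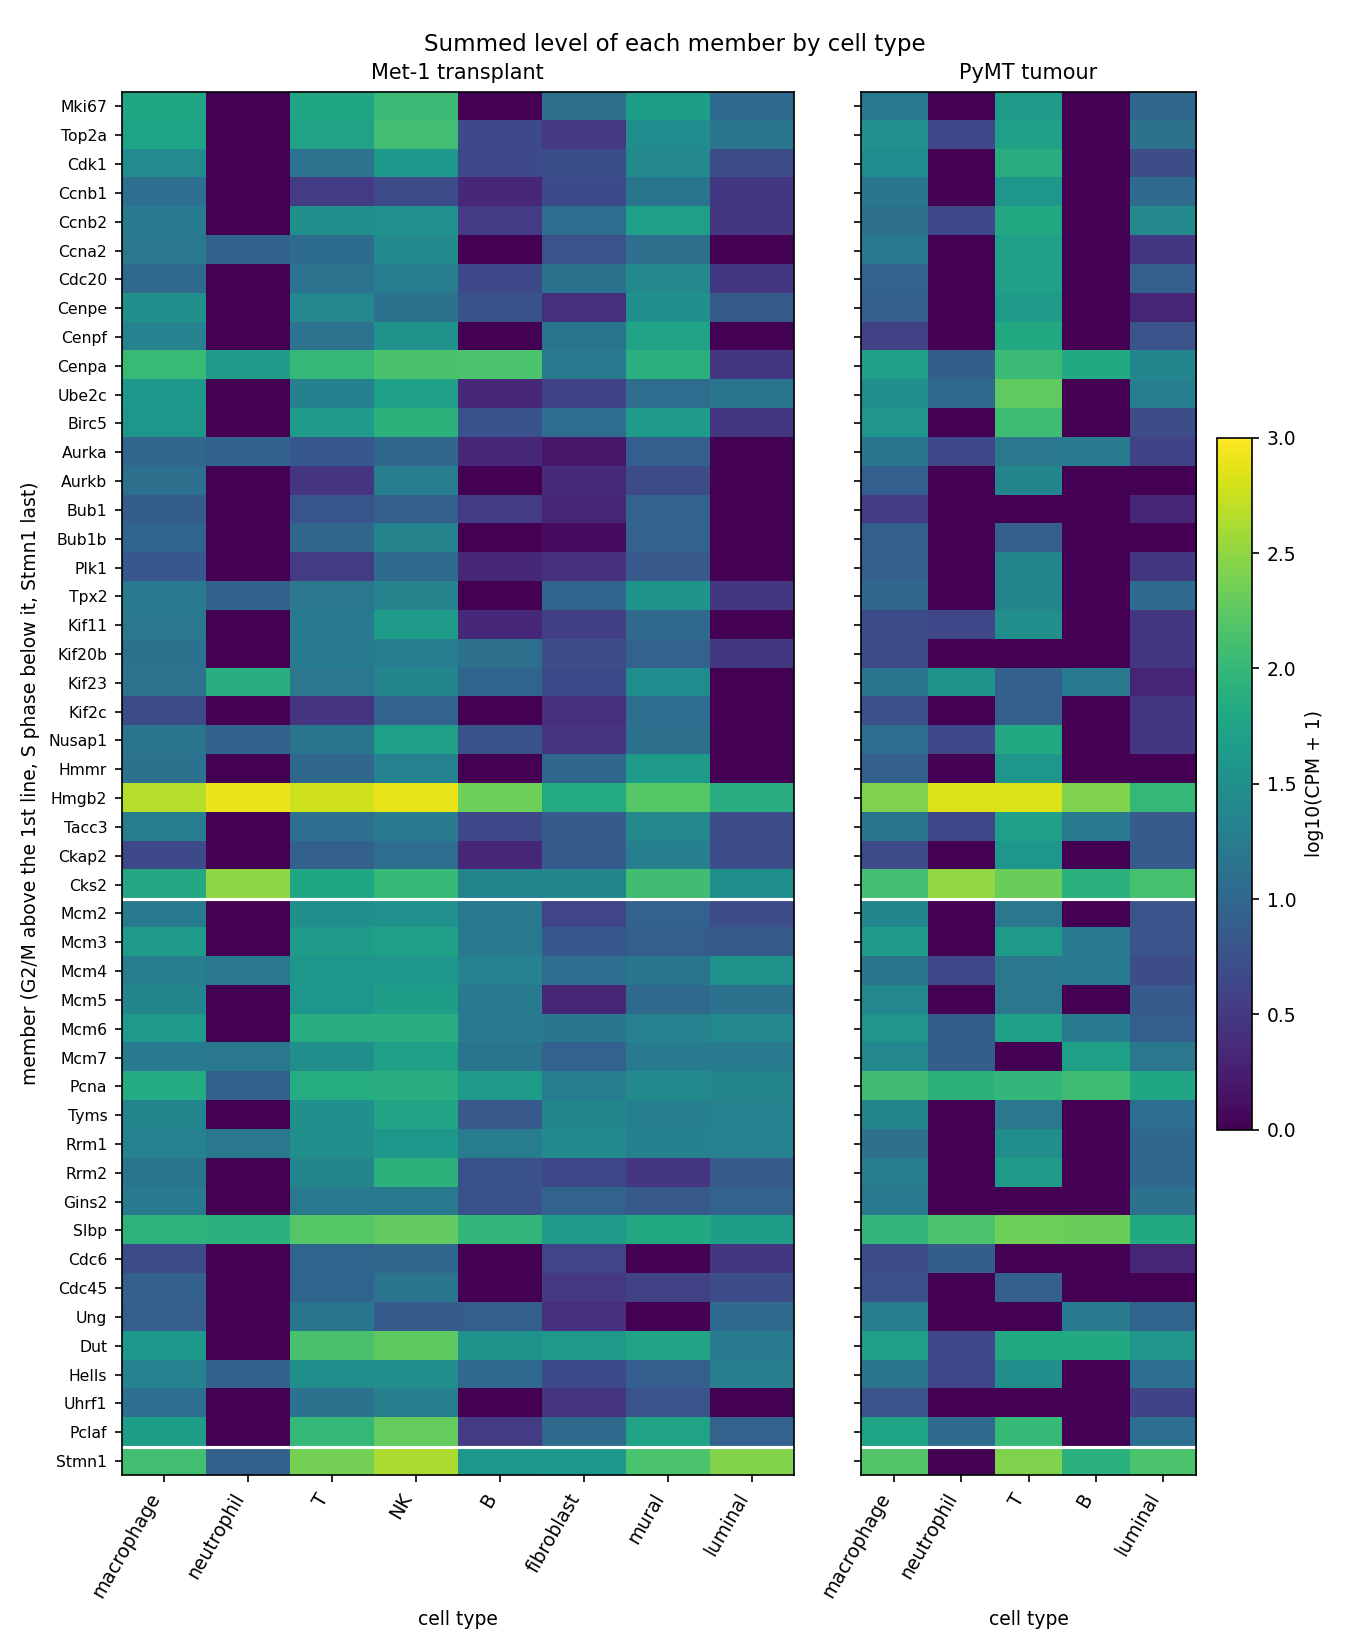
Level of each of the 48 genes by cell type (colour, log10 of CPM + 1), Met-1 transplant on the left and PyMT tumour on the right, G2/M genes above the first line, S phase genes below it and Stmn1 last. Hmgb2 and Cks2 stand out in the neutrophil columns (818 and 312 CPM in Met-1), where 20 of the G2/M genes are at 0.

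With Cenpa and Kif23 also left out, a choice made after the data were seen, 23 G2/M genes remained. At least 2 of their UMIs were present in 5.92% of Met-1 macrophages (4.41 to 7.75), 8.16% of NK cells, 4.26% of T cells, 4.71% of mural cells and 0.939% of fibroblasts. PyMT macrophages stood at 3.05% (1.13 to 6.51) and PyMT T cells at 9.38% on 3 cells. Neutrophils in both libraries and B cells in both stood at 0. Summed levels of the 23 genes were 451 CPM for Met-1 and 294 CPM for PyMT macrophages, against 29.7 and 29.9 CPM in neutrophils, 51.2 CPM in Met-1 B cells and 118 CPM in fibroblasts. A summed level cannot tell fewer dividing cells from less RNA in each.

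At full depth many mitotic genes were detected together in few cells. At least 14 of the 28 G2/M genes were detected together in 35 Met-1 macrophages, 9 T, 6 NK, 4 mural and 2 fibroblast cells, and in no neutrophil or B cell. PyMT had 8 such macrophages, 2 T cells and 2 luminal cells. The cells that took no type held 8 more in each library. In PyMT these 56 unassigned cells were rich in G2/M RNA, with 1166 of the library's 3936 G2/M UMIs and 1619 CPM (1527 to 1714), against 748 CPM in macrophages, so the PyMT values by type leave out much of that library's mitotic RNA. The 240 unassigned Met-1 cells stood at 914 CPM, below the Met-1 macrophages. The 35 macrophages had a median of 16424 UMIs, above the 7796 of their type, and the part of depth in the count was not tested. A single Met-1 fibroblast with 27 of 28 G2/M genes supplied 39.9% of that type's G2/M UMIs, and without it the fibroblast level was 143 instead of 236 CPM. In mural cells the richest cell held 23.5%, and the level without it was 712 instead of 910 CPM.

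Met-1 NK cells had the broadest excess of both groups. Their G2/M level was 2.19 times (2.08 to 2.30) and their S phase level 2.58 times (2.42 to 2.74) that of the other assigned cells. Of 27 measured G2/M genes 7 were at least 2-fold higher, where 3.84% of all measured genes were: Mki67, Top2a, Birc5, Bub1b, Kif11, Nusap1 and Hmgb2. Of 19 S phase genes 7 were higher as well: Mcm5, Mcm7, Tyms, Rrm2, Slbp, Dut and Pclaf. Rrm2, the regulated subunit of ribonucleotide reductase, stood at 84.8 CPM against 10.8 CPM in the other cells, a ratio of 7.85 (5.97 to 10.3). Pclaf stood at 195 against 41.0 CPM, and Top2a at 124 against 34.9 CPM. Stmn1, which destabilises microtubules, stood at 427 CPM, the highest of the 8 Met-1 types. The richest Met-1 NK cell held 16.6% of the type's G2/M UMIs, and without it the G2/M level was 1546 instead of 1817 CPM. For the S phase genes the richest cell held 12.1%, and the level without it was 1079 instead of 1197 CPM. Only 8 PyMT cells carried NK markers, too few to describe.

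T cells carried more S phase than G2/M excess in Met-1. Their S phase level was 1.95 times (1.86 to 2.06) and their G2/M level 1.39 times (1.33 to 1.45) that of the other cells. Dut (dUTP hydrolysis) at 137 CPM and Pclaf at 99.0 CPM were the S phase genes at least 2-fold higher, where 4.09% of all genes were, and none of 28 G2/M genes was. PyMT T cells gave another pattern, with 6 of 8 measured G2/M genes at least 2-fold higher (Cdk1, Ccnb2, Cenpa, Ube2c, Birc5 and Hmgb2) and 2 of 10 S phase genes (Rrm2 and Slbp), where 6.31% of all genes were. In PyMT the T cells' G2/M level was 3.01 times and their S phase level 1.51 times that of the other cells. The S phase level depended on which cells were assigned as T cells. The Met-1 over PyMT S phase ratio of T cells was 1.19 here, and 0.485 when each cell took its largest marker list. How far the PyMT S phase excess lies below the G2/M excess is therefore not settled. A single cell of those 32 held 37.5% of the G2/M UMIs, and without it the level was 1438 instead of 2105 CPM.

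Fibroblasts were low in both groups in Met-1. Their G2/M level was 0.220 times (0.205 to 0.235) and their S phase level 0.387 times (0.360 to 0.416) that of the other cells, at the greatest Met-1 depth (median 16904 UMIs). At least 2-fold lower were 10 G2/M genes, 9 S phase genes and Stmn1, beside 11.7% of all measured genes. Mki67 stood at 11.9 CPM, with 20 of its 44 UMIs in a single cell, and Top2a at 2.16 CPM. Mcm5, a helicase subunit, was at 1.08 CPM. Mural cells stood at 910 CPM of G2/M RNA (853 to 971) against 236 CPM (220 to 252) in fibroblasts. With every G2/M gene counted, Hmgb2 included, the mural level was 1.03 times that of the other cells. With the reduced set it was 1.39 times (1.28 to 1.51). Over the 23 genes left without Cenpa and Kif23 too, mural cells held 508 CPM (465 to 553) and Met-1 macrophages 451 CPM (436 to 467). A single mural cell held 154 of those 518 mural UMIs. Of 27 measured G2/M genes in mural cells 3 were at least 2-fold higher (Ccnb2, Cenpf and Hmmr), near the 8.5% of all genes. Hmgb2 was lower there, as were 2 of 19 S phase genes (Mcm3 and Rrm2), beside 11.1% of all genes. Luminal cells had a G2/M level of 0.191 times in Met-1 (21 cells) and 0.433 times in PyMT (58 cells), and Stmn1 at 271 and 141 CPM.

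Each of the 6 helicase subunits had a higher level, as CPM per gene, in Met-1 NK cells than in macrophages, B cells or fibroblasts. The same held for T cells except for Mcm3, at 42.5 CPM against 42.7 CPM in macrophages, and counting intervals were not compared. Mcm2 to Mcm7 lay between 16.5 and 42.7 CPM in Met-1 macrophages, between 29.4 and 73.4 in T cells, between 32.3 and 73.7 in NK cells and between 13.1 and 20.2 in B cells. Fibroblasts held 1.08 to 14 CPM, and 4 of the 6 subunits were at 0 in Met-1 neutrophils. PyMT macrophages lay between 13.1 and 43.4 CPM and PyMT luminal cells between 4.11 and 14.4 CPM. Mcm6 was the highest of the 6 in Met-1 T and NK cells, and Mcm3 in macrophages of both libraries, by UMI number and not per length.

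Pcna and Slbp had the following levels across types. Pcna stood at 68.2 CPM in Met-1 macrophages, 42.8 in B cells and 17.8 in fibroblasts, and at 120, 115 and 57.6 CPM in PyMT macrophages, B cells and luminal cells. PyMT neutrophils held Pcna at 83.1 CPM on 25 UMIs, against 7.44 CPM on 1 UMI in Met-1. Slbp was the leading S phase gene in most types, at 85.9 CPM in Met-1 macrophages, 81.8 in neutrophils and 160 in T cells, and at 94.1, 140 and 219 CPM in the same PyMT types. NK cells were led by Pclaf and PyMT macrophages by Pcna. Cks2 led the G2/M genes of PyMT luminal cells at 132 CPM, and Hmgb2 led them in every other type described.

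Which genes travel together was read cell by cell at 1000 UMIs. Of 25 Met-1 cells with a Ube2c UMI 88% also held another reduced-set G2/M gene, as did 78.4% of 37 cells with Birc5, 74.5% of 47 with Mki67 and 70% of 40 with Top2a. Among 492 cells with Hmgb2 the share was 27.4%, against 12.1% of cells without it. Cks2 gave 34.0% of 94 cells, against 14.9% of cells without it, and Cenpa 21.7% of 152, against 9.05%. Detection of Hmgb2, Cks2 or Cenpa thus came with other mitotic RNA in a smaller share of Met-1 cells than that of Ube2c or Mki67, with intervals that did not overlap. In PyMT the shares were 72.7% of 11 cells for Ube2c, 68.8% of 16 for Birc5, 20% of 150 for Hmgb2 and 16.9% of 89 for Cks2. There Cenpa gave 37.5% of 16 cells and Top2a 25% of 8, so these 2 genes did not follow the Met-1 order, with intervals that overlapped widely.

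Among the S phase genes seen in at least 10 Met-1 cells, Rrm2 and Pclaf had the highest shares with mitotic RNA. Of 62 Met-1 cells with Pclaf 72.6% held a reduced-set G2/M gene, as did 83.3% of 18 with Rrm2 and 41.4% of 29 with Tyms. Slbp gave 18.6% of 194 cells, against 15.5% of cells without it, and Pcna 21% of 81 against 15.6%. Cdc6, seen in 7 cells, gave 85.7%. PyMT gave 75% of 8 cells for Rrm2, 66.7% of 6 for Tyms, 60% of 15 for Pclaf, 14% of 57 for Slbp and 7.41% of 54 for Pcna. These values describe co-detection within a library that mixes types and depths.

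**Figure D4:**
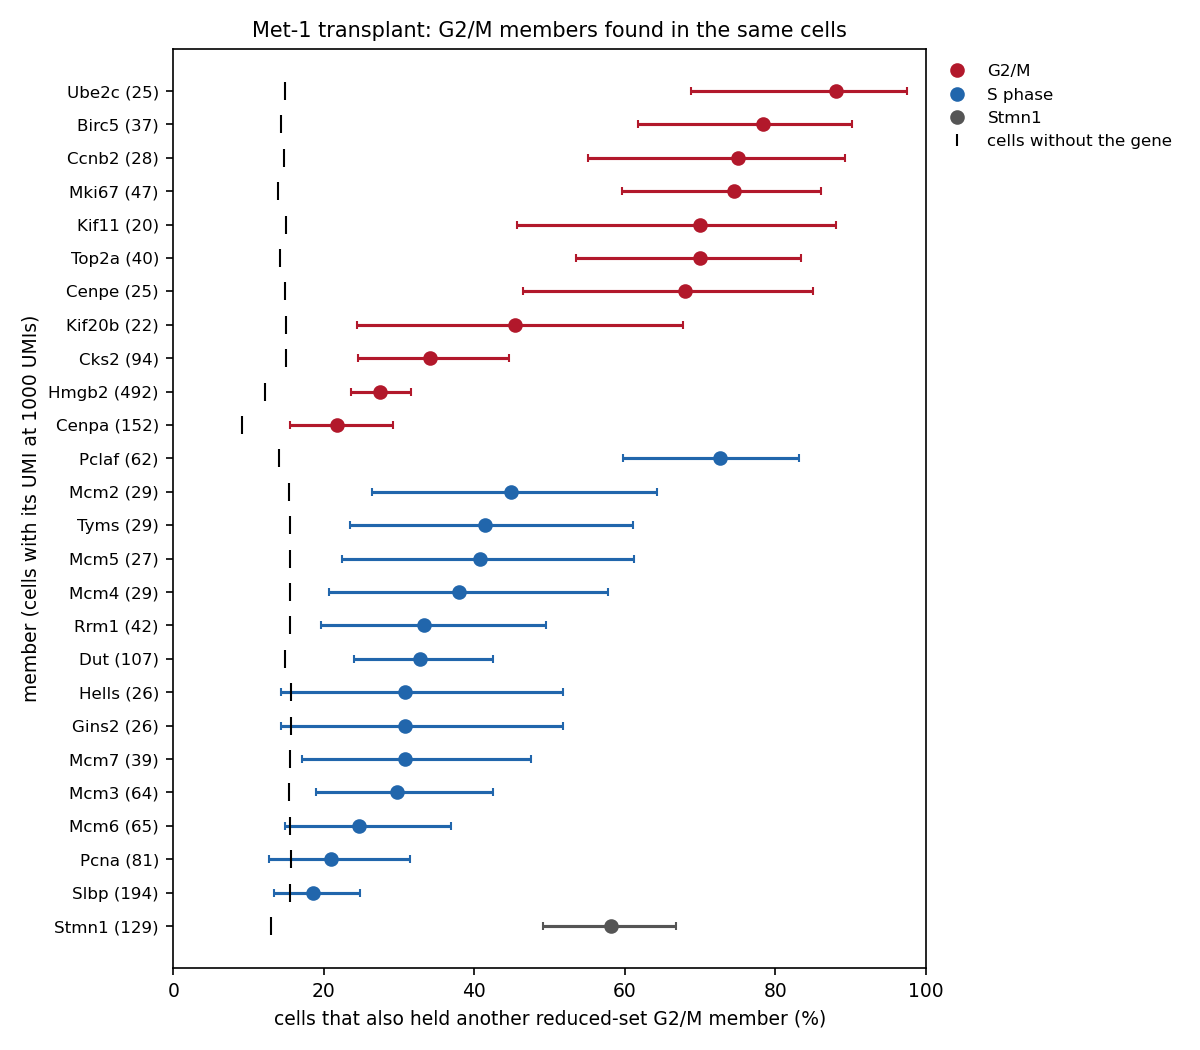
Share of Met-1 cells with a UMI of the named gene that also held another reduced-set G2/M gene (percent, horizontal axis, at 1000 UMIs per cell, exact 95% intervals), with the share in cells without that gene as a black tick, for genes seen in at least 20 cells (number in brackets). Ube2c, Birc5, Ccnb2, Mki67 and Pclaf lie above 70%, and Hmgb2, Cks2 and Cenpa between 21.7% and 34.0%.

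In macrophages Stmn1 was seen most often beside mitotic RNA, although it is in neither group. It was detected in 53.4% (39.9 to 66.7) of the 58 Met-1 macrophages with at least 2 reduced-set G2/M UMIs, in 16.7% of 30 with S phase UMIs only and in 3.38% (2.20 to 4.95) of the 740 others. PyMT macrophages gave 50% of 8, 23.1% of 13 and 3.98% of 176. Met-1 T cells gave 58.8% of 17, 36.4% of 11 and 3.38% of 207, and NK cells 63.6% of 11, 33.3% of 3 and 5.95% of 84. Met-1 B cells held Stmn1 in 0 of 7 cells with G2/M UMIs, 0 of 2 with S phase UMIs only and 3.23% of the 217 others. In 5 of those 7 all the G2/M UMIs came from Cenpa, and no B cell qualified without Cenpa. The pattern could therefore not be checked in B cells. Median unthinned depth differed among the 3 macrophage groups, at 10729, 7325 and 7707.5 UMIs, and its part was not tested beyond the thinning. No neutrophil with 1000 UMIs held Stmn1 in the thinned counts.

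Macrophages with G2/M UMIs had C1q and EGFP levels near those of the others, but this likeness was partly set in advance. The C1q genes are among the markers that assigned the type in the same thinned counts, and the cells were sorted for EGFP. C1q genes were detected in 98.3% of the 58 Met-1 macrophages with G2/M UMIs and in 96.9% of the 740 others, at means of 13.9 and 14.6 UMIs per 1000. EGFP stood at a mean of 3.24 UMIs per 1000 in those 58, 4.17 in the 30 with S phase UMIs only and 3.74 in the others. Of all 828, 21 macrophages held at least 2 UMIs of both reduced sets, 37 of G2/M alone and 30 of S phase alone. In PyMT these numbers were 0, 8 and 13 of 197.

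Between the libraries, macrophages held more G2/M RNA in Met-1, with slightly less S phase RNA. Met-1 macrophages stood at 1103 CPM of G2/M RNA and PyMT macrophages at 748 CPM, a ratio of 1.47 (1.39 to 1.56). Without Hmgb2 the levels were 635 and 489 CPM, a ratio of 1.30 (1.21 to 1.40). S phase levels were 518 and 592 CPM, a ratio of 0.876 (0.817 to 0.939). Over all 8518 measured genes the median log2 ratio was 0.15, and it was 0.27 over the 24 measured G2/M genes and -0.03 over the 18 measured S phase genes. Animal, tumour type and library differ together here and cannot be told apart.

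Of 24 measured G2/M genes 3 were at least 2-fold higher in Met-1 macrophages, where 5.21% of all genes were. These were Mki67 at 56.7 and 15.4 CPM (ratio 3.68, 2.50 to 5.66), Cenpe at 31.0 and 7.42 CPM (4.18, 2.40 to 7.98) and Cenpf at 20.5 and 2.85 CPM (7.20, 3.02 to 22.5). Cenpe, a kinetochore motor, and Cenpf, a kinetochore protein, were picked out after their values were seen. None of the 24 was at least 2-fold lower, where 1.24% of all genes were, and of the 18 S phase genes none passed in either direction. All 3 calls were lost with at least 50 UMIs required in both libraries, or with 50 CPM added.

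The other core mitotic genes did not share that size of difference. Cdk1 gave 0.969 (0.706 to 1.35) and Ccnb1 0.811 (0.514 to 1.32), while Top2a gave 1.67 (1.26 to 2.25). Hmgb2 gave 1.81 (1.64 to 2.0) and Cenpa 2.04 (1.63 to 2.57). Cks2 went the other way, at 0.503 (0.428 to 0.592). So the G2/M group did not move as a block between the 2 libraries.

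In the S phase group Pcna was lower in Met-1, at 0.566 (0.481 to 0.668), and Rrm1, the large subunit of ribonucleotide reductase, higher at 1.68 (1.06 to 2.80). Mcm2 to Mcm7 gave 0.728, 0.986, 1.38, 0.960, 1.17 and 0.687, each with an interval that included 1. Tyms gave 0.986, Rrm2 0.777 and Slbp 0.912, also with intervals that included 1.

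Transcript length moved with these ratios over all genes. Across 8388 measured macrophage genes the Met-1 over PyMT log2 ratio and the length of the longest annotated transcript had a Spearman rho of 0.519, and over 43 of the 48 genes it was 0.593, both as descriptions over genes that share their 2 libraries. Genes of at least 10000 nt had a median log2 ratio of 0.75, those of 7000 to 10000 nt had 0.59, and those under 1000 nt had -0.21. Cenpf is 11130 nt long, Mki67 10061 and Cenpe 7910, and their log2 ratios with 10 CPM added were 1.25, 1.39 and 1.24. Cks2 is 692 nt long, with a log2 ratio of -0.89, and Pcna 1518 nt, with -0.74. Each of the 5 therefore lay beyond the median of its length range in the direction of that range, and the part of length in these results was not tested.

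**Figure D5:**
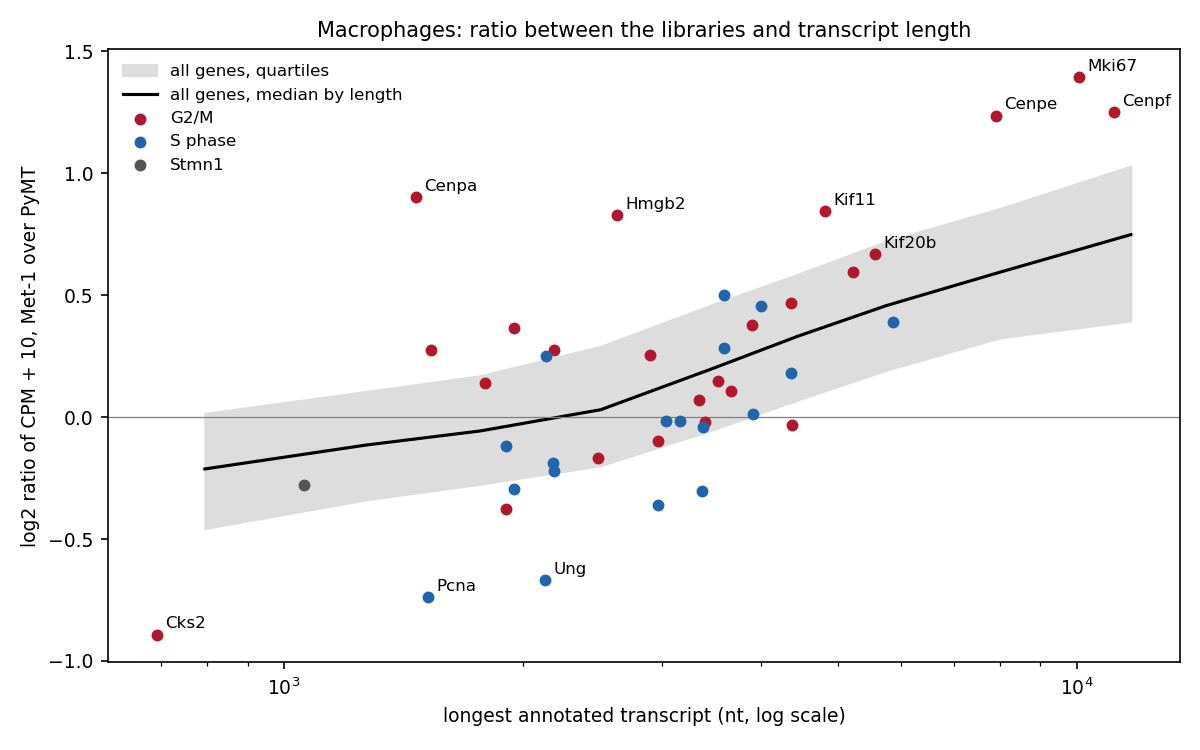
Met-1 over PyMT log2 ratio in macrophages (10 CPM added, vertical axis) against the longest annotated transcript (nt, log axis), for all measured genes and for the genes described here. The all-gene median climbs from -0.21 under 1000 nt to 0.75 from 10000 nt on, with Mki67, Cenpe and Cenpf above it and Cks2 below it.

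T cells and neutrophils were the other types with enough cells in both libraries. T cells held 1176 CPM of G2/M RNA in Met-1, against 2105 CPM in PyMT, a ratio of 0.559 (0.494 to 0.634). Their S phase ratio was 1.19 (0.975 to 1.47), and it turned to 0.485 when each cell took its largest marker list and to 0.528 with another random thinning, so no direction is given for it. Neutrophils had a G2/M ratio of 1.17 (0.969 to 1.41) and an S phase ratio of 0.538 (0.308 to 0.896), the latter from 19 and 79 UMIs.

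Other genes of the cycle, taken from fixed lists, were read beside the 48. Cdkn1a, the p21 inhibitor of cyclin-dependent kinases, stood at 1217 CPM (1095 to 1348) in PyMT neutrophils against 453 CPM in macrophages. In Met-1 the values were 342 CPM (250 to 456) and 256 CPM, not told apart at this depth. Cdkn1b, the p27 inhibitor, stood at 335 and 170 CPM in neutrophils against 103 and 66.2 CPM in macrophages. Pttg1 (securin) stood at 141 and 153 CPM there, against 56.5 and 53.0 CPM in macrophages, and it was the only 1 of 19 measured genes of the further mitosis list at least 2-fold higher in Met-1 neutrophils, with 5 lower. Both counts are near the shares of all genes (6.23% and 23.1%). In Met-1 NK cells 3 of 13 measured genes of the further replication list were higher (Rpa2, Clspn and Gmnn, beside 3.84% of all genes) and none lower (beside 16.7%). Fibroblasts had 5 of 14 replication and 4 of 19 mitosis genes lower, beside 11.7% of all genes, and none higher, beside 14.2%. Among the lower genes, Gmnn, Lig1, Prc1 and Cdca8 held 14, 28, 13 and 16 fibroblast UMIs. They were thus measured through the other cells alone. Between the libraries none of 13 replication and none of 15 mitosis genes differed 2-fold in macrophages, where 6.46% of all genes did, so that counts this small say little. Tuba1b, a tubulin, was lower in Met-1 macrophages, at 230 against 561 CPM.

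Of the 48 genes 9 overlap another annotated gene on the opposite strand: Ccna2, Cdc20, Cdc45, Gins2, Mcm7, Nusap1, Pclaf, Tacc3 and Ube2c. The largest overlap with a gene detected here was that of Pclaf with Trip4, over 13030 bases. Whether counting used the strand is not stated in the sources used here, so values for these genes are less certain.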

How the data were processed

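Each library was a 10x Genomics droplet library from sorted cells. The authors made the deposited UMI counts per gene and barcode with Cell Ranger 3.1.0 on mm10, per the submitters' processing notes; the annotation release and strand setting are not given in the sources used here. Counts were raw whole numbers.

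A barcode was used if it held 500 UMIs or more from 200 genes or more, no more than 10% of them mitochondrial, and had no Scrublet doublet call (scanpy 1.11.5; 23 Met-1 and 1 PyMT calls). This left out 339 and 30 barcodes. Kept cells hold 19768692 and 4293854 UMIs. Each cell was thinned without replacement to 1000 UMIs (seed 1), leaving out 70 and 24 shallower cells. A cell took the marker list with at least 3 UMIs and at least 2 times the second list. Types were described within a library from 20 cells and between libraries from 30. Summed counts were scaled to CPM. A gene was measured with at least 50 summed UMIs in either group, and apart at a 2-fold ratio of CPM + 10. Shares carry Clopper-Pearson, levels Poisson and ratios conditional binomial 95% intervals. A 0 is given with the upper end of its exact interval. Levels in barcodes above the mitochondrial limit were read against 3 UMIs. Scripts (Python 3.11.15, numpy 2.4.6, scipy 1.17.1) were tested on simulated data. Transcript lengths came from GENCODE M21 and promoter windows from RefSeq.

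The genes, lists and settings were chosen with earlier results of these data known. By rule, values were given for the 8 G2/M and 8 S phase genes with the most UMIs, for Mki67, Top2a, Cdk1, Ccnb1, Mcm2 to Mcm7, Pcna, Tyms, Rrm1, Rrm2 and Stmn1, for the leading gene of each type, and for further cycle genes by count or by most UMIs; others named were picked after their values were seen. Alternatives changed the depth, UMI minimum, seed, marker rule, filters, gene sets, scaling and added CPM. Unassigned and mixed cells (240 and 58 in Met-1, 56 and 10 in PyMT) entered no type.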

Additional observations from a re-analysis of the deposited data

Results flagged for a closer look

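The G2/M level differed between the libraries in opposite directions in 2 cell types. In macrophages it was 1.47 times as high in Met-1 as in PyMT, and in T cells it was 0.559 times. The difference between the types was not tested, since each library is a single sample, and the T cell value rests on 32 PyMT cells, of which the richest held 37.5% of the G2/M UMIs.

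Barcodes above the mitochondrial limit, which entered no comparison, also held RNA of these genes. The 316 such Met-1 barcodes had 1229 CPM of G2/M RNA (1143 to 1320) and 453 CPM of S phase RNA (401 to 510), at a median of 1250.5 UMIs. The 27 PyMT barcodes had 746 CPM of G2/M RNA (525 to 1028) and 181 CPM of S phase RNA (83 to 344), the last on 9 UMIs. There were no control samples, so these levels were set only against the limit that a count of 0 allows.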

How the results depend on the processing

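No paired analysis was possible because each group is 1 library. Ratios between libraries were recomputed for the 2 gene groups in 3 types and for 10 single genes in macrophages (not Rrm1 or Cenpa). None of these whose interval excluded 1 turned direction. The T cell S phase ratio (1.19) and the neutrophil G2/M ratio (1.17), whose intervals included 1, fell below it, the second to 0.994 without Cenpa and Kif23 too. Within each library the neutrophil G2/M excess turned with the reduced set (1.45 to 0.328 and 1.51 to 0.207). Macrophage shares followed depth and the UMI minimum. In the order Met-1 G2/M, Met-1 S phase, PyMT G2/M and PyMT S phase they were 33.4%, 18.3%, 22.2% and 22.7% at 2000 UMIs, 40.3%, 28.3%, 38.6% and 28.9% with at least 1 UMI, and 8.33%, 3.74%, 4.57% and 4.06% with at least 3. At 500 UMIs Met-1 gave 7.0% and 3.74% and PyMT S phase 4.06%. The reduced sets gave 7.0%, 6.16% and, for PyMT G2/M, 4.06%; without Cenpa and Kif23 too, 5.92%, 6.16% and 3.05%.

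Macrophage G2/M and S phase ratios were 1.36 and 0.796 with another seed, added after seeing the data, and 1.37 and 0.816 with the largest marker list. The G2/M ratio was 1.30 (1.21 to 1.40) without Hmgb2 alone, 1.58 with the reduced set, which also leaves out Cks2, and 1.60 without the richest cell of each library. T cell ratios were less stable. With another seed they were 0.478 and 0.528, and with the largest list 0.462 and 0.485. The T cell G2/M ratio was 0.765 with at least 5 marker UMIs, 0.425 with the reduced set, 0.365 also without Cenpa and Kif23, 0.643 when centred, and 0.742 without the richest cells, where the S phase ratio was 1.5.

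Counts depended on the CPM added. With 1 CPM, macrophages had 7 genes higher and 1 lower in Met-1, 25 higher in NK cells and 35 lower in fibroblasts; with 50 CPM these were 0 higher in macrophages, 6 in NK cells, and 3 lower in fibroblasts and 3 in neutrophils. With 50 UMIs in both libraries, 0 were higher in macrophages. In the main counts these were 3 higher and 0 lower in macrophages, 15, 20 and 24. Of 414 further values, 325 moved by less than counting error and 89 by more. Depth limits the PyMT types, neutrophils and B cells most.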
